A study of Mus musculus with 8 samples.

Results

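The genes described are 10 genes of the MHC class I antigen presentation pathway in mouse embryonic stem cells: Psmb8, Psmb9, Psmb10, Psme1, Tap1, Tap2, Tapbp, Erap1, H2-K1 and H2-D1. They were chosen by name, with earlier results of these data known. Every probe set annotated to 1 of these symbols alone was taken, which gave 25 of the 22690 probe sets on the array. For tests by gene, 1 probe set stood for each gene, the one with the highest mean over the 8 arrays, so that 10 of 12394 genes were members. RNA came from the mouse line J1, for which 1 growth protocol, on gelatin in serum with leukemia inhibitory factor (LIF), is given for all samples, and was measured on Affymetrix microarrays in 4 groups of 2 arrays. One group was on day 4 of differentiation, by a method that the labels do not give and with no hairpin named. The next groups carried either of 2 short hairpin RNAs against Fbxl19 (shRNA1 and shRNA2), an F-box protein gene with a DNA-binding CXXC domain. The last carried a control hairpin (shControl). Every array outside day 4 thus carried a hairpin, so differentiation and a possible lack of a hairpin cannot be told apart. Whether replicates were separate cultures is not stated, so a p-value here covers only how far the arrays of a group differ, possibly for technical reasons alone.

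MHC class I molecules show short peptides from the inside of a cell to cytotoxic T cells. Proteasomes cut proteins into peptides, the TAP transporter moves them into the endoplasmic reticulum, an aminopeptidase trims them there, and tapasin helps to load them onto a heavy chain paired with beta-2 microglobulin. Interferons and the activator Nlrc5 are known to raise many of these genes together, and embryonic stem cells are known for low surface levels of class I.

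The series was made to follow gene expression after Fbxl19 knockdown. Fbxl19 itself had 0 probe sets in the annotation, and the knockdown was not checked. All values are log2 expression values deposited after RMA, and a level is not compared between probe sets. The lower quartile of an array lay between 3.79 and 3.90, and values near or under it are dim, with no measure of background given. The label of the cells was borne out by their markers: Pou5f1 was at 12.15 and 12.23 on day 4 and at 12.31 to 12.57 on the 6 undifferentiated arrays. Nanog fell to 9.88 and 9.94 on day 4, against 11.69 and 11.54 in shControl (limma adjusted p = 6.35e-05). The mean over 11 of 12 white blood cell markers was 4.54 and 4.28 on day 4 and 4.54 to 4.77 on the other arrays. Ptprc, the defining gene of that list, was at 3.02 and 2.85 on day 4 and 2.92 and 2.91 in shControl, under the lower quartile of each array. Of those markers, Laptm5, a lysosomal membrane protein gene, fell to 7.5 and 5.20 on day 4, against 10.10 and 9.56 in shControl. Coro1a, an actin regulator, rose to 6.53 and 5.97, against 5.28 and 5.53 in shControl, a call lost under 6 of 19 alternatives. The part of these markers in the results below was not tested. The 11 fibroblast markers averaged 3.92 and 3.97 on day 4 and 3.86 to 4.01 on the others.

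The windows around the start sites are shown first, because interferon and NF-κB are known to act on several class I genes near their start sites. RefSeq (GRCm38.p6) gave windows from 250 bases before to 50 bases after the start site for 9 of the 10 genes, all but Tap2. Capitals mark matches to any of 4 motifs, searched on both strands. These are the interferon-stimulated response element (TTTC, any 2 bases, TTTC), its shorter core TTTCACTT (chosen after the windows were read), the interferon gamma-activated site TTCNNNGAA, and the NF-κB consensus. The sequences are written along the gene's own strand.
Psmb8 (chr17:34197945-34198244, plus strand): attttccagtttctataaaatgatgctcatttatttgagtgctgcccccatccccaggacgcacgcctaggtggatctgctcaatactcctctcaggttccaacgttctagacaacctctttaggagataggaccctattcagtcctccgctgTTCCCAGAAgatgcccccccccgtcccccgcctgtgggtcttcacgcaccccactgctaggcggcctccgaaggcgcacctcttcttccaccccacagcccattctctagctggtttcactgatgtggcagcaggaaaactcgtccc
Tap1 (chr17:34187306-34187605, plus strand): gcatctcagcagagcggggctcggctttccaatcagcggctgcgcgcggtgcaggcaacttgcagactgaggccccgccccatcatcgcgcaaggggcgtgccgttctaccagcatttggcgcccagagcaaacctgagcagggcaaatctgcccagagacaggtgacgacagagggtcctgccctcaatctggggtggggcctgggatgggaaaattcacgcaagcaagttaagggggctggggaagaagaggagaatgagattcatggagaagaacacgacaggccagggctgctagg
Erap1 (chr13:74639603-74639902, plus strand): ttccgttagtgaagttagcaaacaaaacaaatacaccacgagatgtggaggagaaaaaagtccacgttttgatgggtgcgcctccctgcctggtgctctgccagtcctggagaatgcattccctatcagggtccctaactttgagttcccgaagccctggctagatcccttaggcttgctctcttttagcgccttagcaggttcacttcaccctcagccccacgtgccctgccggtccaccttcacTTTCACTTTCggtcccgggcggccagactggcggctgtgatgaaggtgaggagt
Psme1 (chr14:55578244-55578543, plus strand): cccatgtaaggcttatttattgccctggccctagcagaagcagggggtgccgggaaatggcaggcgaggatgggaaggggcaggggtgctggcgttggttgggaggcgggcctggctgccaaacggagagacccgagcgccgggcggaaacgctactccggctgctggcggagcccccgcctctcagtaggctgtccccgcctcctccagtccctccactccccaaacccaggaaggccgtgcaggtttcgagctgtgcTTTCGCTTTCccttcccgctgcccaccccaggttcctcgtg
H2-K1 (chr17:34000284-34000583, minus strand): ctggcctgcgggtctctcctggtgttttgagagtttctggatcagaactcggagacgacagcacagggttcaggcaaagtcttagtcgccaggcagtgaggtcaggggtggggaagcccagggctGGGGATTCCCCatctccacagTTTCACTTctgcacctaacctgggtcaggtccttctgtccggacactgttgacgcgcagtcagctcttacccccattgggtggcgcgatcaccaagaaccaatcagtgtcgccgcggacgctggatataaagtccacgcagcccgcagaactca
H2-D1 (chr17:35262844-35263143, plus strand): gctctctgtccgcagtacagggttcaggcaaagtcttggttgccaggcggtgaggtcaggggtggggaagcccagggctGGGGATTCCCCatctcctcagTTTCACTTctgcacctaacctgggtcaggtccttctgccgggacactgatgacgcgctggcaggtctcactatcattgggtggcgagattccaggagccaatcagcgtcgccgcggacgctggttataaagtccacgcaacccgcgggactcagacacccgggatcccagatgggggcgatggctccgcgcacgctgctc

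Of all 32851 windows in the table, 3.44% held the response element, 1.6% the shorter core, 8.3% the gamma-activated site and 8.46% the NF-κB consensus. The response element was found in Psme1, 9 to 18 bases after the start site, and in Erap1, across it, where it overlaps the shorter core. Psmb8 held a gamma-activated site 97 to 89 bases before its start. H2-K1 and H2-D1 each held the NF-κB consensus and, after it, the shorter core, and the NF-κB match lies in a run of 47 bases that the 2 windows share. Tap1 held 0 matches to the 4 motifs, as did Psmb9, Psmb10 and Tapbp, whose windows are not printed. The Tap1 window overlaps that of Psmb9, on the opposite strand, over 275 bases, with start sites 226 bases apart, so the genes are read divergently from 1 region. Tap1 had 15 CpG dinucleotides, against a median of 7 over all windows and an upper quartile of 20. The members ranged from 3 in Psmb10 to 19 in Psme1 and H2-D1. A match describes letters in a window and shows no binding.

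On day 4 of differentiation, 8 of the 10 genes rose against shControl, where 7.67% of all genes were called higher (limma, Benjamini-Hochberg adjusted p under 0.05 over all genes). Of the 10, 0 fell, where 8.73% of all genes were called lower. The changes of these 8 ran from 0.88 for Psme1 to 4.18 for Psmb8 on the log2 scale, and Psmb9 and Psmb10 did not pass. The count was 5 without shControl replicate 1, where 13.9% of all genes were called in either direction, and also 5 with array weights. With array weights the share of all genes called was not computed. The median over the 10 genes was 1.29, and over all genes -0.000454. For 9 of the 10, all but Psmb10, both day 4 arrays lay above all 6 undifferentiated arrays, as they did for 15% of all genes. The 10 were chosen with earlier results of these data known, so setting them beside all genes is no independent test. In RNA from a whole culture, more cells with a transcript and more transcript per cell cannot be told apart.

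**Figure D1:**
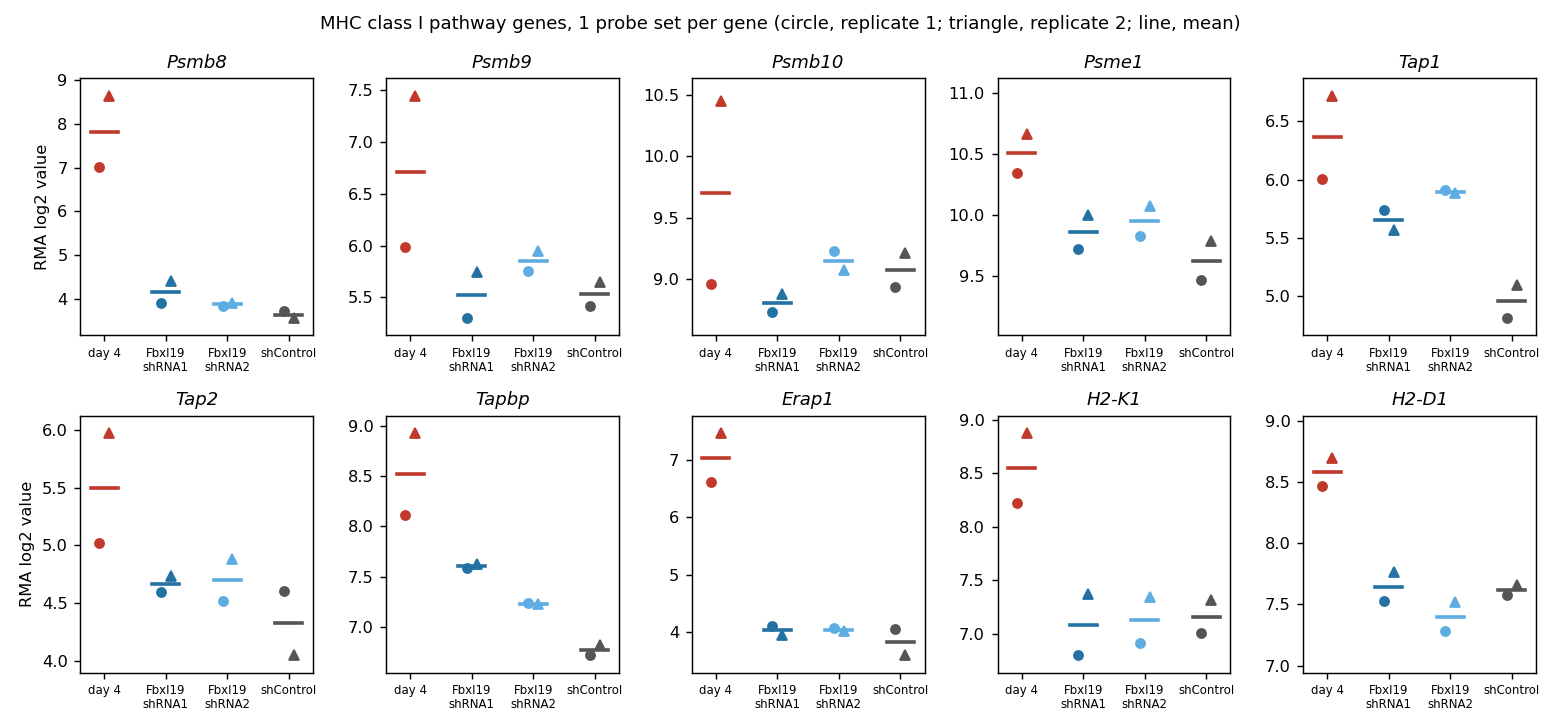
RMA log2 values (y axis) of the 10 genes on each array, by group (x axis). Circles are replicate 1, triangles replicate 2 and lines group means of 2 arrays. Day 4 lies highest in every panel by its mean, and its replicate 2 lies above its replicate 1 in all 10.

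Psmb8, Psmb9 and Psmb10 encode the 3 catalytic subunits that turn a proteasome into an immunoproteasome. Psmb8 was at 7.004 and 8.64 on day 4, at 3.91 and 4.41 with shRNA1, 3.85 and 3.91 with shRNA2, and 3.73 and 3.57 in shControl. Day 4 stood clear of every other array. Psmb8 rose by 4.18 ± 0.43 (SE, 2 against 2 arrays; limma adjusted p = 0.000271), the seventh largest rise among 12394 genes. Its shControl mean of 3.65 lay under the lower quartile of every array, so no fold is stated. Psmb9 was at 5.98 and 7.45 on day 4, 5.30 and 5.75 with shRNA1, 5.75 and 5.95 with shRNA2, and 5.41 and 5.65 in shControl. One day 4 array was far above the others, and the other was barely above the highest shRNA2 array. Its change was 1.18 ± 0.39, with a limma adjusted p of 0.0746. Psmb10 was at 8.96 and 10.45 on day 4, 8.72 and 8.88 with shRNA1, 9.23 and 9.07 with shRNA2, and 8.93 and 9.21 in shControl. Here 1 day 4 array lay within the undifferentiated range and 1 above it, with a change of 0.63 ± 0.38 (limma adjusted p = 0.321). The count was 10 of 10 without day 4 replicate 1, where Psmb9 had 1.91 and Psmb10 1.38, and 16.4% of all genes were called in either direction. It was 7 without day 4 replicate 2, where they had 0.45 and -0.11, and 21.2% of all genes were called. Both fits leave 1 day 4 array, which is assumed to vary like the arrays of the other groups.

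The subunits they replace did not pass the test in any comparison. On day 4, Psmb5 had -0.03 ± 0.14, Psmb6 -0.13 ± 0.14 and Psmb7 -0.13 ± 0.13 (limma adjusted p of 0.929, 0.579 and 0.581). Psmb5 was at 11.99 and 12.15 on day 4, against 11.96 and 12.23 in shControl. Of 14 other 20S subunits and assembly factors 0 were called, with a median of -0.04, and of 12 regulatory-particle and activator genes also 0, with a median of -0.12. Limma called 16.4% of all genes on day 4, in either direction. At an unadjusted p under 0.05 there were 0 of the 14 and 1 of the 12, with no share over all genes given for that p.

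Psme1 encodes a subunit of the PA28 activator, a cap that opens the proteasome. It was at 10.34 and 10.67 on day 4, 9.73 and 10.01 with shRNA1, 9.83 and 10.07 with shRNA2, and 9.47 and 9.79 in shControl. Both day 4 arrays lay above the rest, and Psme1 rose by 0.88 ± 0.18, or 1.84-fold (limma adjusted p = 0.0118). Its partner subunit Psme2 had only a probe set shared with Psme2b. That probe set was at 10.83 and 11.63 on day 4, against 9.88 and 10.09 in shControl, a rise of 1.24 ± 0.24 (limma adjusted p = 0.00951).

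Tap1 and Tap2 together encode the peptide transporter. Tap1 was at 6.01 and 6.72 on day 4, 5.74 and 5.57 with shRNA1, 5.91 and 5.88 with shRNA2, and 4.81 and 5.10 in shControl. The hairpin arrays lay between, nearer to the lower day 4 array than to shControl. Tap1 rose on day 4 by 1.41 ± 0.22, or 2.66-fold (limma adjusted p = 0.00282). Against both hairpin groups instead of shControl, its day 4 change was 0.59 (limma adjusted p = 0.0610). Its other probe sets had day 4 changes of 0.08, 0.10 and -0.13 (limma adjusted p of at least 0.612). The first of them was at 4.39 and 4.73 on day 4 and 4.37 and 4.60 in shControl, and the others lay under every lower quartile. The mean of its 4 probe sets changed by 0.36 (limma adjusted p = 0.0818). Tap2 was at 5.02 and 5.97 on day 4, 4.60 and 4.74 with shRNA1, 4.52 and 4.88 with shRNA2, and 4.60 and 4.05 in shControl. It rose by 1.17 ± 0.30, or 2.25-fold (limma adjusted p = 0.0299), though its lower day 4 array lay only a little above the highest shRNA2 array. The call was lost without either shControl array or day 4 replicate 2 (limma adjusted p of 0.0530, 0.218 and 0.0778) and against both hairpin groups (0.81; limma adjusted p = 0.0583).

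Tapbp encodes tapasin, which holds empty heavy chains at the transporter. It was at 8.11 and 8.93 on day 4, 7.59 and 7.62 with shRNA1, 7.24 and 7.22 with shRNA2, and 6.72 and 6.82 in shControl. The 4 groups did not overlap, with day 4 at the top and shControl at the bottom. Tapbp rose on day 4 by 1.75 ± 0.23, or 3.37-fold (limma adjusted p = 0.00103). Its second probe set, at 5.38 and 5.30 on day 4 and 4.89 and 4.86 in shControl, had 0.46 ± 0.18 and did not pass (limma adjusted p = 0.128). Erap1 encodes the aminopeptidase that trims peptides in the endoplasmic reticulum. It was at 6.61 and 7.46 on day 4, 4.11 and 3.95 with shRNA1, 4.06 and 4.02 with shRNA2, and 4.05 and 3.59 in shControl. All 6 undifferentiated arrays sat near the lower quartile and both day 4 arrays far above it. Erap1 rose by 3.21 ± 0.26 (limma adjusted p = 7.44e-05), and as its shControl mean of 3.82 was that dim, no fold is stated.

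H2-K1 and H2-D1 encode classical heavy chains. They are highly polymorphic between strains and close in sequence to each other and to other H2 genes, so their probe sets may read more than 1 gene. H2-K1 was at 8.22 and 8.88 on day 4, 6.80 and 7.37 with shRNA1, 6.91 and 7.35 with shRNA2, and 7.003 and 7.32 in shControl. Only day 4 stood apart, and H2-K1 rose by 1.39 ± 0.27, or 2.62-fold (limma adjusted p = 0.00828). H2-D1 was at 8.47 and 8.70 on day 4, 7.52 and 7.76 with shRNA1, 7.28 and 7.52 with shRNA2, and 7.58 and 7.66 in shControl. Again only day 4 stood apart, with a rise of 0.97 ± 0.16, or 1.96-fold (limma adjusted p = 0.00307). The 2 genes had 13 probe sets between them, 11 of them of the type Affymetrix marks as likely to match several transcripts. Of the 13, 7 rose on day 4 when every probe set was tested, where 6.72% of all probe sets were called higher. The other H2-K1 probe sets that rose had 0.99 ± 0.16 and 0.68 ± 0.16, and the other H2-D1 probe sets that rose had 1.29 ± 0.17, 1.02 ± 0.18 and 0.83 ± 0.22. The brightest that did not pass, an H2-D1 probe set, was at 5.87 and 6.43 on day 4 and 6.02 and 5.47 in shControl. It had 0.41 ± 0.25 (limma adjusted p = 0.331). The remaining H2-K1 and H2-D1 probe sets were dim, with 0.11 to 0.41. Of 3 probe sets shared by a member with another gene, 0 were called. That of both genes had 0.54 ± 0.20 (limma adjusted p = 0.118). That of H2-K1 and H2-Q5 had 0.02 ± 0.12 (limma adjusted p = 0.953). That of H2-D1, H2-Q2 and Gm38417, which was dim, had -0.26 ± 0.14 (limma adjusted p = 0.266).

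Over all 10 genes, 13 of 25 probe sets rose on day 4 and 0 fell, where 8.06% of all probe sets were called lower. Of 7 whose mean lay under the lower quartile of every array, 0 were called, and of 18 brighter ones, 13 were.

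**Figure D2:**
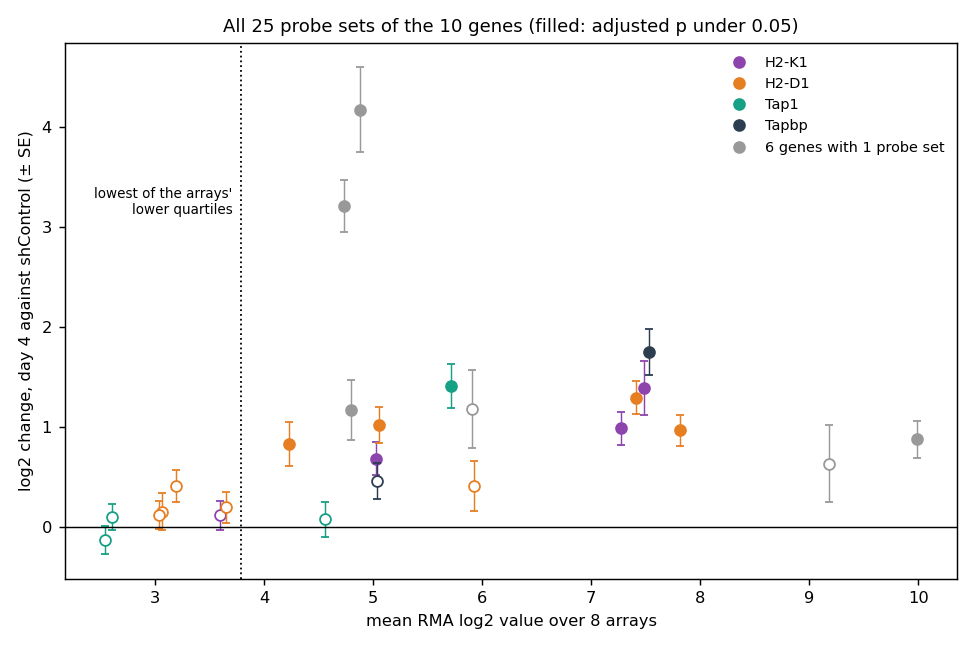
Log2 change on day 4 against shControl (y axis, ± moderated SE) of all 25 probe sets against their mean RMA log2 value over 8 arrays (x axis). Filled points passed (limma adjusted p under 0.05 over all probe sets), and the 7 to the left of the dotted line, the lowest of the arrays' lower quartiles, are all open.

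Outside the 10 genes, B2m, the light chain that every classical heavy chain needs, was at 10.005 and 9.37 on day 4, 8.20 and 8.09 with shRNA1, 7.82 and 7.96 with shRNA2, and 7.73 and 8.23 in shControl. It rose by 1.70 ± 0.23, or 3.26-fold (limma adjusted p = 0.00129). Day 4 replicate 1 was the higher array for B2m, unlike the 10 genes. Of 11 measured genes in a list of the light chain, other heavy chains and class I-like genes, 2 rose and 2 fell. The median was 0.17, and the shares of all genes called higher and lower were 7.67% and 8.73%. The second riser was H2-Q2, at 4.57 and 4.47 on day 4 and 2.66 and 2.38 in shControl, dim in the undifferentiated groups, a rise of 1.99 ± 0.14 (limma adjusted p = 3.73e-05). The lipid-presenting gene Cd1d1 fell to 5.53 and 5.39 on day 4, against 6.66 and 6.75 in shControl, a change of -1.24 ± 0.14 (limma adjusted p = 0.000466). Fcgrt, the heavy chain of the neonatal Fc receptor, fell to 4.33 and 4.21 on day 4, against 5.85 and 5.86 in shControl, a change of -1.58 ± 0.16 (limma adjusted p = 0.000294). Of 7 probe sets shared among the clustered H2-Q and H2-T genes, 4 rose, by 1.58 to 1.99. Among probe sets with 1 symbol, 6.72% were called higher.

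The list of other peptide-loading, trimming and folding genes had 0 of 10 called, with a median of 0.08 and 2 at an unadjusted p under 0.05. Class II genes, which present peptides from outside the cell, had 0 of 8 called, a median of 0.11 and 0 at an unadjusted p under 0.05. For comparison, 16.4% of all genes were called in either direction, and no share is given at the unadjusted p. Of 17 measured regulators of class I genes, 1 rose and 2 fell, where 7.67% of all genes were called higher and 8.73% lower. Nlrc5 had no probe set of its own and was not analysed here. Rfx5, part of the complex that binds class I and class II promoters, rose by 0.57 ± 0.17 (limma adjusted p = 0.0499), a call kept under 8 of 19 alternatives. Irf9, the DNA-binding part of the type I interferon complex, was at 3.69 and 4.47 on day 4 and 6.01 and 5.86 in shControl, a change of -1.86 ± 0.23 (limma adjusted p = 0.000711). Ezh2, the Polycomb methyltransferase, changed by -0.63 ± 0.13 (limma adjusted p = 0.0126). Irf1, an activator of immunoproteasome and Tap1 promoters, was at 9.06 and 10.02 on day 4, 8.24 and 8.94 with shRNA1, 8.47 and 8.89 with shRNA2, and 8.24 and 8.60 in shControl. Its change of 1.12 ± 0.33 did not pass (limma adjusted p = 0.0523), and passed under 6 of 19 alternatives.

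Of 9 receptor, kinase and inhibitor genes of interferon signalling, 1 rose and 3 fell (all genes: 7.67% called higher, 8.73% lower). Ifngr1, the ligand-binding chain of the interferon gamma receptor, rose by 0.88 ± 0.14. Ifnar2, of the type I receptor, and its kinase gene Tyk2 changed by -0.79 ± 0.15 and -1.03 ± 0.18, and the feedback inhibitor gene Socs3 by -4.75 ± 0.26 (limma adjusted p of at most 0.00695 for the 4). Of 26 interferon-inducible genes outside the class I pathway, 9 rose and 4 fell, beside the same shares of all genes, with a median of 0.33. The guanylate-binding protein genes Gbp2b, Gbp2 and Gbp3 rose by 5.02 ± 0.24, 4.30 ± 0.19 and 1.74 ± 0.17. Bst2, which tethers budding virus, rose by 1.96 ± 0.18. Oas1a, an antiviral synthetase, changed by -2.37 ± 0.19, and Ifitm1, of the antiviral Ifitm family, by -1.54 ± 0.15. These lists were chosen with results of these data known.

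**Figure D3:**
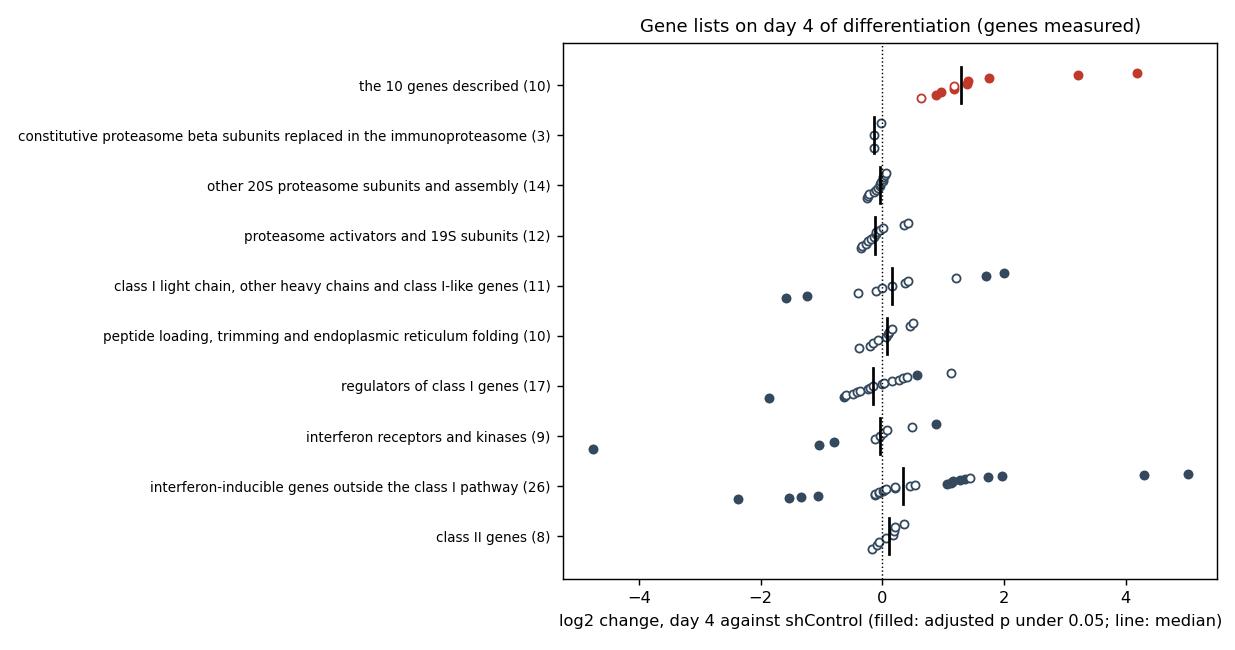
Log2 change on day 4 against shControl (x axis) of the 10 genes, in red, and of 9 lists of related genes, with the number measured in brackets (y axis). Points are genes, filled where limma's adjusted p was under 0.05, and lines are medians. The 10 genes lie between 0.63 and 4.18, while the class II and proteasome lists lie around 0 with no filled point.

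Of the 10 genes, 7 lie on mouse chromosome 17, where Psmb9, Tap1, Psmb8 and Tap2 follow each other in the RefSeq order of measured genes. The nearest measured genes on either side of the members, leaving out members, were 14. Of these, H2-Q2 beside H2-D1 rose on day 4, 2 fell and 11 were not called. Among all genes, 7.67% were called higher and 8.73% lower. The class II genes that flank the run of 4, H2-DMb2 and H2-Ab1, had day 4 changes of 0.19 ± 0.17 and -0.05 ± 0.15 (limma adjusted p of 0.530 and 0.880). Zbtb22 and Rgl2, which flank Tapbp, had 0.06 ± 0.22 and 0.08 ± 0.13 (limma adjusted p of 0.904 and 0.750). Vps52 and Ring1 beside H2-K1 had -0.34 ± 0.16 and 0.09 ± 0.15 (limma adjusted p of 0.205 and 0.736). The 2 that fell were Cast beside Erap1 on chromosome 13, with -0.55 ± 0.15, and Emc9 beside Psme1 on chromosome 14, with -0.70 ± 0.19, calls kept under 9 and 8 of 19 alternatives.

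The day 4 arrays differed from each other. Replicate 2 was higher than replicate 1 for 10 of the 10 genes, by a median of 0.83 and at most 1.64, for Psmb8. Over all genes it was higher for 53.5%, with a median difference of 0.02 and an SD of 0.41. Some markers of pluripotency differed too: Esrrb was at 7.35 and 4.76 on day 4 against 9.65 and 9.87 in shControl, and Zfp42 at 10.23 and 8.41 against 12.20 and 12.13. Fgf5, which marks the later epiblast state, was at 4.91 and 6.30 on day 4 against 3.60 and 3.21 in shControl. Others did not: Nanog was at 9.88 and 9.94 on day 4, and Nes, of the neural and epiblast list, had the higher value in replicate 1, at 6.95 and 6.60, against a mean of 6.14 in shControl. Replicate 2 was farther than replicate 1 from the shControl mean in 10 of the 10 genes, 5 of 8 stem cell markers and 5 of 7 neural and epiblast markers. So it was in 5 of 7 endothelial, 5 of 8 extraembryonic endoderm, 6 of 11 white blood cell and 3 of 11 fibroblast markers. For the 10 genes this largely restates that replicate 2 was the higher array. The share over all genes was not computed. The part of these differences between the day 4 arrays in the members' values was not tested.

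**Figure D4:**
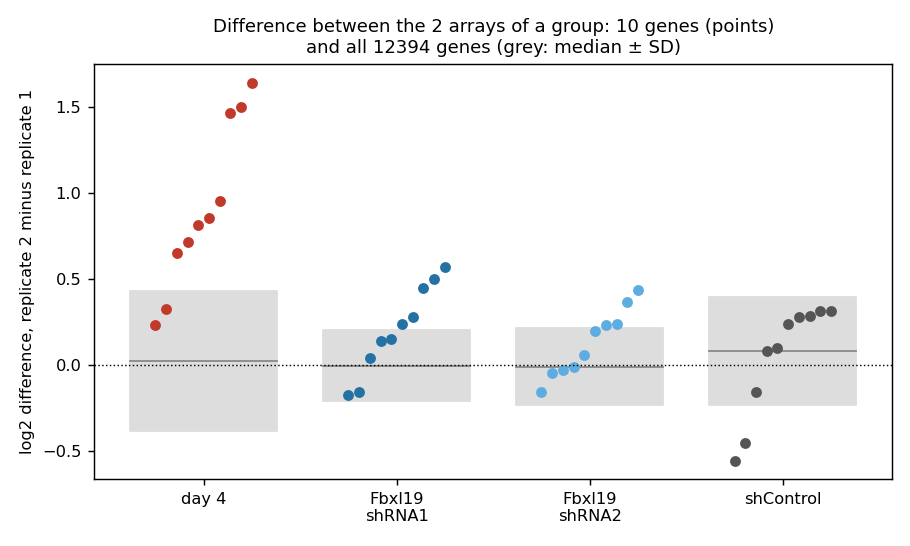
Log2 difference between the arrays of a group, replicate 2 minus replicate 1 (y axis), by group (x axis). Points are the 10 genes, and grey bands the median ± SD over all 12394 genes. All 10 day 4 points lie above 0, and 8 lie above the band.

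With the hairpins against Fbxl19, limma called 0 of the 10 genes in the mean of both hairpins against shControl, where 0.0726% of all genes were called. It also called 0 with shRNA1 (0.242% of all genes called) and 0 with shRNA2 (0% of all genes). At an unadjusted p under 0.05 there were 2, 2 and 1 of the 10, all higher, where 4.32%, 4.66% and 2.82% of all genes were higher at that p. The median change over the 10 genes was 0.25 for both hairpins, 0.22 for shRNA1 and 0.28 for shRNA2, and the median over all genes was -0.00431, -0.000905 and -0.00733 in these comparisons. The hairpin comparisons and the day 4 comparison share the shControl arrays.

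Tap1 and Tapbp were the members at an unadjusted p under 0.05. The levels given above put all 4 hairpin arrays above both shControl arrays for each gene, as for Psmb8. Arrays were placed so for 9.53% of all genes. Tap1 changed by 0.82 ± 0.19 for both hairpins (4 against 2 arrays; limma adjusted p = 0.252), by 0.70 ± 0.22 with shRNA1 and by 0.94 ± 0.22 with shRNA2. Tapbp changed by 0.65 ± 0.20 for both hairpins (limma adjusted p = 0.420), by 0.84 ± 0.23 with shRNA1 and by 0.46 ± 0.23 with shRNA2. These changes did not pass in the fit of all 4 groups, whose estimate of spread includes the day 4 arrays. With only the hairpin and shControl arrays in the fit, both passed (limma adjusted p of 0.0384 for Tap1 and 0.0402 for Tapbp), and 0.436% of all genes were called. With only the shRNA1 and shControl arrays in the fit, Tapbp alone of the 10 passed (limma adjusted p = 0.0264, 0.912% of all genes called). With only the shRNA2 and shControl arrays, Tap1 alone passed (limma adjusted p = 0.0221, 0.323% of all genes called). For both hairpins in the fit of all 4 groups, Tap1 had 0.68 and 0.96 without shControl replicate 1 or 2, and Tapbp 0.60 and 0.70. These fits called 0% of all genes, so that the absence of a call there says nothing of these 2 genes. Their other probe sets had changes of 0.10, 0.00 and -0.10 for Tap1 and 0.09 for Tapbp, and averaged over their probe sets Tap1 had 0.21 and Tapbp 0.37.

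The other 8 genes had changes for both hairpins between -0.10 and 0.37, the highest being Psmb8, and 5 of these 8 were above 0. B2m had 0.04 ± 0.20 (limma adjusted p = 0.971). Irf1 had 0.22 ± 0.29 (limma adjusted p = 0.862). Between the hairpins limma called 0 of 10 genes, where 0.105% of all genes were called. In either direction, 0 of the 10 had an unadjusted p under 0.05. At that p 2.7% of all genes were higher, and the share that were lower is not given. The differences, shRNA2 minus shRNA1, ran from -0.38 ± 0.23 for Tapbp to 0.35, and Tap1 had 0.24 ± 0.22.

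**Figure D5:**
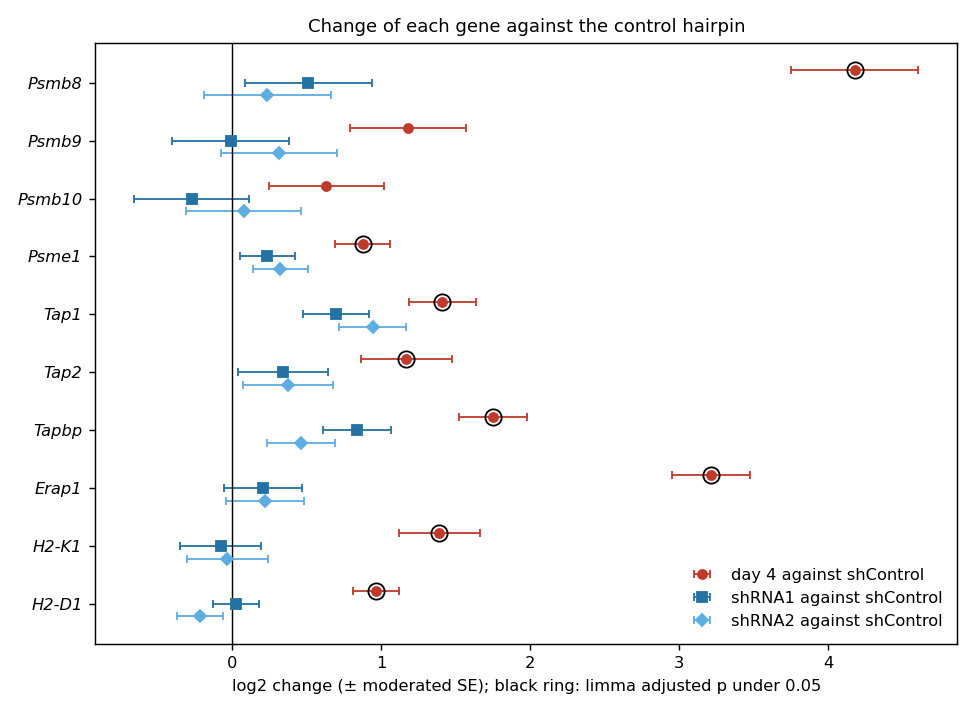
Log2 change against shControl (x axis, ± moderated SE) of each gene (y axis) on day 4 (circles), with shRNA1 (squares) and with shRNA2 (diamonds). Black rings mark limma adjusted p under 0.05 over all genes: 8 day 4 points have one and no hairpin point does, Tap1 and Tapbp having the largest hairpin changes, up to 0.94.

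Among the members, the profile over the 8 arrays was most like the mean of the other 9 for Psmb8 (Pearson's r = 0.98) and least for Psmb10 (0.76). Among 1118 other named genes with an SD of at least 0.5 over the arrays, the 5 most like the mean of the 10 were Cxcl12 (r = 0.99), Tnfrsf19, Gatm, Myb and Pdzrn3 (r of at least 0.98, n = 8 arrays). In all 5, day 4 replicate 2 was the highest array and day 4 replicate 1 the next. Cxcl12, a chemokine gene, was at 6.27 and 8.13 on day 4 and 3.49 and 3.38 in shControl. These likenesses rest on the gap between the day 4 arrays and the rest and on the gap between the 2 day 4 arrays. They are given as a description.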

How the data were processed

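The authors deposited 1 log2 expression value per probe set and array, which RMA produced, per the submitters' processing notes. Neither its version nor joint normalization of the 8 arrays is stated there. The design text names an Affymetrix array while a label names Cy3. Groups and replicate numbers came from the sample titles; the free-text descriptions of 3 knockdown arrays name other Fbxl genes and were not followed.

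Of 22690 probe sets, 20393 had 1 symbol in the platform annotation, of which 20364 were matched by gene ID to RefSeq (GRCm38.p6). A linear model with a mean per group was fitted to all 12394 genes with limma 3.58.1 in R 4.3.3 (lmFit, eBayes), and p-values were adjusted over all of them by Benjamini-Hochberg. The script was tested on simulated data. Arrays have no read depth; their number, 2 a group, limits the precision. The members and the gene lists were chosen with earlier results of these data known. Named were the 10 members with all their probe sets; up to 6 called genes per list with the largest change; a few fixed genes (Psmb5, Psmb6, Psmb7, B2m, Psme2, Nlrc5 and Irf1, with 1 more that is not reported here); the 5 genes most like the members' mean; and the nearest measured neighbours. The alternatives were every probe set, probe sets averaged by gene, the dimmest 30% of genes left out, eBayes with trend and robust settings, only the compared groups, array weights, repeated quantile normalization, centred arrays, a 1.5-fold minimum, a replicate block, other undifferentiated groups as the base of day 4, and each array left out.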

Additional observations from a re-analysis of the deposited data

How the results depend on the processing

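The count of 8 members called on day 4 was 5 with array weights and 5 to 10 when 1 array was left out. The 5 came without shControl replicate 1, where Psme1 (limma adjusted p = 0.0689), Tap2 (0.0530) and H2-K1 (0.0681) were not called. Under the remaining alternatives it lay between 6, against both hairpin groups, and 9. With array weights, against both hairpin groups and with a replicate block, the share of all genes called was not computed. Those counts thus cannot be set beside all genes. Psmb8, Erap1, Tapbp and H2-D1 were called on day 4 under all 19 alternatives that gave them a value; Tap2 was lost under 6. Of the other named genes called on day 4, Rfx5, Cast, Emc9, Coro1a, Ezh2 and Ifnar2 lost the call under 1 or more alternatives, and 0 changed sign. Psmb10 had -0.11 on day 4 without day 4 replicate 2 and 1.38 without day 4 replicate 1. Fitted to the compared groups alone, the counts were 2 for both hairpins, 1 for shRNA1 (Tapbp) and 1 for shRNA2 (Tap1). When 1 array was left out they were 0 to 2, 0 to 1 and 0. Without a shControl array, 0 of all genes were called for both hairpins, so these fits do not bear on single genes. A group left with 1 array is assumed to vary like the other groups. The median over the members on day 4 was 0.83 over all their probe sets, and 1.74 and 0.95 without day 4 replicate 1 and replicate 2. With the replicate number as a block, 9 members were called on day 4, Psmb9 being added, and 0 in the hairpin comparisons. The labels do not say that a number marks a shared culture. The deviations of same-numbered arrays correlated across genes at 0.50 between shRNA1 and shRNA2. Those of shControl correlated at 0.26 with shRNA1 and 0.23 with shRNA2, and those of day 4 between -0.08 and 0.07 with the other groups. What same-numbered undifferentiated arrays shared was not tested. For dim probe sets, with no background measure, the size of a change is uncertain. The causes were not tested.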
